A study of Saccharomyces cerevisiae with 8 samples.

Results

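The 56 genes described here, RPS0A to RPS31, encode the proteins of the small subunit of the cytosolic ribosome in the budding yeast Saccharomyces cerevisiae. They were chosen by gene name, with earlier results of these data known, and they are 56 of the 7126 genes in the deposited table. All 56 names matched the R64 reference gene table, and all 56 passed the filter on low counts that left 6174 genes for testing. The genes make 32 proteins. For 24 proteins there are 2 gene copies, called A and B, and for 8 there is a single gene, as in RPS2, RPS3 and RPS31.

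RNA was sequenced from BY4741, a haploid laboratory strain, in 4 groups of 2 libraries each: HP mutation, nHP mutation, HP control and nHP control. The mutation strain is labelled as more tolerant of oxidative stress than the control strain, and the sources used here do not name the mutated gene. Cells of both strains grew to mid-exponential phase in synthetic medium without uracil, and the series text says that hydrogen peroxide was added to some of the cultures. The medium entry of the labels assigns peroxide to every control library and to no mutation library, which contradicts the titles, so HP and nHP are used here as titles only, without saying which cultures held peroxide. No source says whether a group's libraries came from separate cultures, so p-values measure the spread between these libraries, which may be technical. Each group has 2 libraries throughout.

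The small subunit binds messenger RNA and the initiator transfer RNA, scans for the start codon and then decodes it, and it joins the large subunit to form the translating ribosome. Ribosomal protein genes are among the most highly transcribed genes of growing yeast, and the factors Rap1, Fhl1, Ifh1 and Sfp1 are known to drive them together. Most ribosomal protein genes of yeast are duplicated, and both copies encode nearly the same protein. Some minor copies are known to be held low by their own product: Rps14 represses RPS14B, Rps9 limits splicing of the RPS9A transcript, and Rps28 promotes decay of the RPS28B transcript.

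The coding sequences of A and B copies are alike, which sets how well reads can tell them apart. A stretch of 3 pairs is shown in RefSeq's R64 sequence, with the bases that differ between the copies of a pair in capitals. The pairs RPS9 and RPS14 are the 2 with the most unequal copies, and RPS6 has the most alike. Each stretch holds coding bases 100 to 219, except in RPS14B, where it holds bases 103 to 222. The RPS9 stretch differs at 9 bases, the RPS14 stretch at 6 and the RPS6 stretch at 2.
RPS9A (YPL081W, chrXVI:405550-405669, plus strand): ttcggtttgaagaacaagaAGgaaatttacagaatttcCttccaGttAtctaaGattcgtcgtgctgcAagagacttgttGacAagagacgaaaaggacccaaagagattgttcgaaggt
RPS9B (YBR189W, chrII:605020-605139, plus strand): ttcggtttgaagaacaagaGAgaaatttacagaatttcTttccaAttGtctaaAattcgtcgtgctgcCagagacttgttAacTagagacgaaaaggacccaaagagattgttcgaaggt
RPS14A (YCR031C, chrIII:177695-177814, minus strand): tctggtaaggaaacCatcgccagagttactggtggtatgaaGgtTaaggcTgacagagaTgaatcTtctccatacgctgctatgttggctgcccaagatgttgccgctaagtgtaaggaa
RPS14B (YJL191W, chrX:74297-74416, plus strand): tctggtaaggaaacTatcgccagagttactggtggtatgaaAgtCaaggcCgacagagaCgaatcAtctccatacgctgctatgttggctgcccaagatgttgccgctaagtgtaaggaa
RPS6A (YPL090C, chrXVI:377783-377902, minus strand): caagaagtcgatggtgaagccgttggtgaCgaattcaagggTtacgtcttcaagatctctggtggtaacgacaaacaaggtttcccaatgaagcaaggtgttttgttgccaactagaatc
RPS6B (YBR181C, chrII:592204-592323, minus strand): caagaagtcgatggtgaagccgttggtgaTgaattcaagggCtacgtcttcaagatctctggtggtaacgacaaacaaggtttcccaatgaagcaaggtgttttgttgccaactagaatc

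Over the whole coding sequence, identity between copies ran from 84.3% in RPS27 to 99.2% in RPS6. Of the 50-base windows of the A copy, 72.1% occurred unchanged in the B copy of RPS6, 46.8% in RPS4 and 38.2% in RPS24, and none did in 9 pairs. The sources used here do not say how reads that match both copies were counted, so the values of such pairs are the least certain.

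The libraries held 8296523 to 11202362 counts. The 56 genes took 2.83% and 3.18% of the counts in the HP mutation libraries, 3.65% and 3.99% in the nHP mutation libraries, 3.15% and 4.0% in the HP control libraries, and 3.88% and 4.24% in the nHP control libraries. In bulk RNA a lower share can mean less RNA of these genes, in all or in part of the cells, or more RNA of other genes. These cannot be told apart here. Both HP mutation libraries lay below both nHP mutation libraries, while the HP control libraries differed from each other more than any other pair. Pooled over strains, the share was 3.29 ± 0.497% in HP libraries and 3.94 ± 0.247% in nHP libraries (SD, n = 4 each), and the difference of -0.651 percentage points did not pass a two-sided exact permutation test (p = 0.114; the smallest p possible is 0.0286). Without HP control replicate 2, the HP library with the highest share, the difference was -0.887 points. The mutation libraries averaged 3.41 ± 0.51% and the control libraries 3.82 ± 0.471% (SD, n = 4 each), a difference of -0.405 points (exact permutation p = 0.286).

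The 56 genes varied together across libraries. After scaling for library composition, the median of the 56 genes relative to each gene's own mean was -0.36 and -0.22 on the log2 scale in the HP mutation libraries and 0.08 and 0.28 in the nHP mutation libraries. It was -0.21 and 0.13 in the HP control libraries and 0.05 and 0.22 in the nHP control libraries. Over all genes tested the same medians lay between -0.03 and 0.02. Within a library the 56 genes spread by an SD of 0.05 to 0.15 around these medians, and in each of the 4 groups at least 51 of the 56 genes were lower in replicate 1 than in replicate 2.

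**Figure D1:**
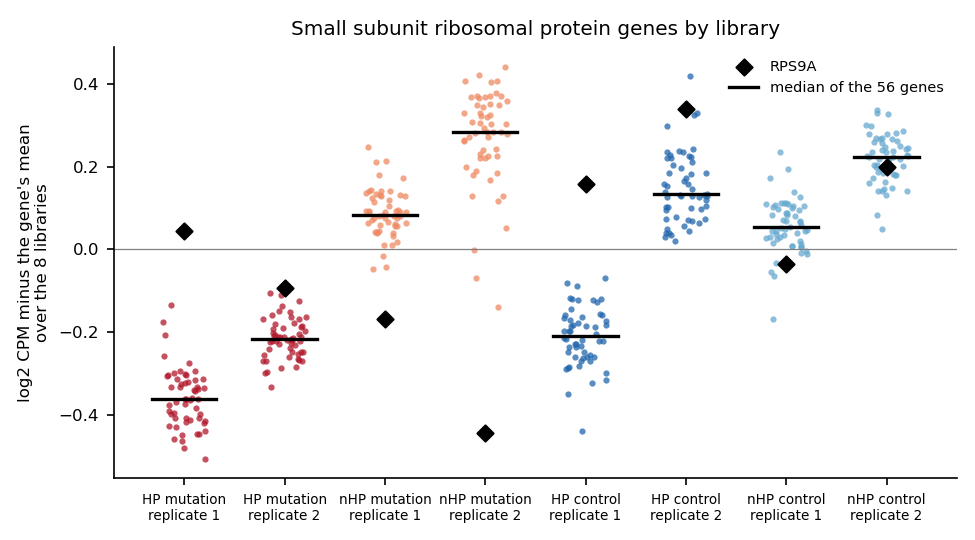
Level of each of the 56 small subunit genes in each of the 8 libraries, as log2 CPM (counts scaled to library size) minus the gene's mean over the libraries; points are genes, lines are medians and diamonds mark RPS9A. The medians of the HP mutation libraries lie at -0.36 and -0.22 and those of the nHP mutation libraries at 0.08 and 0.28, while RPS9A is lowest in an nHP mutation library.

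Levels differed between genes far more than between groups. On the RPKM scale, which divides counts by gene length and library total, RPS9A (mean of 8 libraries 142), RPS14B (150.1) and RPS28B (296) were the lowest of the 56. RPS31, made as a fusion to ubiquitin that is cleaved off, was the highest at 4970, followed by RPS12 at 3257, RPS25A at 2916 and RPS20 at 2899. The ranges of RPS9A (94 to 178 RPKM over the 8 libraries) and RPS14B (139 to 164 RPKM) overlapped, and neither reached that of RPS28B (238 to 393 RPKM). RPS31 ranged from 3798 to 5907 RPKM, and its lowest library lay within the range of RPS12 (2561 to 3819 RPKM).

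When A and B copies were added, the 32 proteins drew on transcript levels within a narrower range. The sum per protein was lowest for RPS6 (1036 RPKM, mean of 8 libraries), with RPS4 (1295 RPKM) and RPS2 (1305 RPKM) also among the lowest, and it was highest for RPS30 (4339 RPKM) and RPS31 (4970 RPKM). The median was 2836 RPKM over the 24 duplicated proteins and 2414 RPKM over the 8 proteins with a single gene. RPS6 and RPS4 were also pairs whose copies share much sequence: the 4 pairs with over 30% of windows shared ran from 1036 to 1942 RPKM, and the other 20 pairs ran from 1740.5 to 4339 RPKM. RPS6 and RPS4 also have long coding sequences (711 and 786 bases), as do RPS2 (765 bases) and RPS1 (768 bases, sum 2875 RPKM). The part of shared reads or of coding length in these low sums was not tested.

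**Figure D2:**
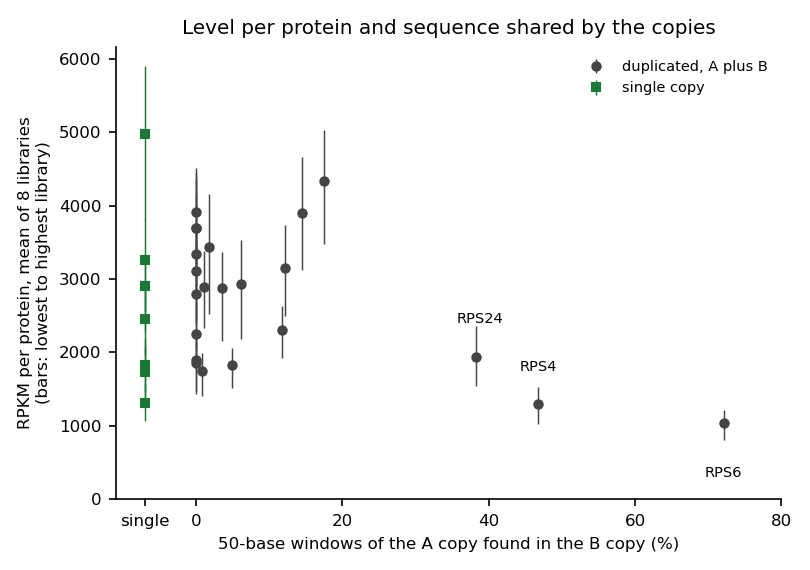
RPKM of 29 small subunit proteins, A plus B copy or single gene (mean of 8 libraries, bars from the lowest to the highest library), against the percent of 50-base windows of the A copy that occur in the B copy. RPS6, with 72.1% of windows shared, has the lowest sum, 1036 RPKM, and RPS4, with 46.8%, has 1295 RPKM.

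In the mutation strain, small subunit genes were lower in HP than in nHP libraries. Of the 56 genes, 48 fell, 0 rose and 8 did not pass (edgeR's quasi-likelihood test, Benjamini-Hochberg adjusted p below 0.05 over all 6174 genes). In the same comparison 24.1% of all genes were called lower, 25.2% higher and 49.3% in either direction. The median log2 fold change was -0.48 over the 56 genes and 0.02 over all genes tested. For 55 genes both HP mutation libraries lay below both nHP mutation libraries, which held for 38.7% of all genes, and for RPS9A both lay above, which held for 41.1%. At an unadjusted p under 0.05, 53 of the 56 genes passed, among them RPS9A as the sole one higher in HP. Over all genes 3467 of 6174 passed at that unadjusted p. DESeq2 called 52 lower and 0 higher.

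This count depended most on 2 of the libraries. Leaving out HP mutation replicate 1 left 3 genes called lower with a median of -0.38, and leaving out nHP mutation replicate 2 left 5 with a median of -0.35. Leaving out the other library of each group gave 33 without HP mutation replicate 2 and 49 without nHP mutation replicate 1. Over all genes the number called lower was 894 of 6222 without HP mutation replicate 1 and 842 of 6234 without nHP mutation replicate 2, against 1486 of 6174 with every library.

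Among the smallest p-values were those of genes from different places on the subunit. RPS26B encodes a protein of the platform beside the exit of the mRNA channel. On the CPM scale, which is counts divided by the library size after composition scaling, it had 417 and 472 CPM in the HP mutation libraries, against 659 and 726 CPM in the nHP mutation libraries. Its log2 fold change was -0.64 ± 0.12 (standard error, edgeR adjusted p = 0.00129), with no overlap between the groups. RPS15, a single gene for a protein of the head near the decoding site, had 827 and 827 CPM in the HP mutation libraries, against 1148 and 1343 CPM in the nHP mutation libraries (log2 fold change -0.59 ± 0.11, edgeR adjusted p = 0.00149).

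Also among them were RPS0B, RPS6B and RPS4B. RPS0B, whose protein is needed for late maturation of the subunit, fell by 0.51 (± 0.11, edgeR adjusted p = 0.00363). RPS6B encodes the protein phosphorylated under TOR signalling and fell by 0.55 (± 0.13, edgeR adjusted p = 0.00443). RPS4B fell by 0.51 (± 0.12, edgeR adjusted p = 0.00566). The log2 fold change lowest of all was that of RPS21A, whose protein contacts Rps0. It had 362 and 391 CPM in the HP mutation libraries and 537 and 638 CPM in the nHP mutation libraries (-0.64 ± 0.16, edgeR adjusted p = 0.00589). RPS26B and RPS15 stayed called without HP mutation replicate 1 and also without nHP mutation replicate 2, whereas RPS6B and RPS4B were lost in both settings.

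At the other end of the called genes were RPS23A, RPS7A, RPS27A, RPS18A, RPS30A and RPS21B. RPS23A, which encodes a protein of the decoding centre, fell by 0.36 (± 0.13, edgeR adjusted p = 0.038). RPS7A fell by 0.47 (± 0.17, edgeR adjusted p = 0.0358), RPS27A, which encodes a zinc-binding protein, by 0.47 (± 0.16, edgeR adjusted p = 0.0318), and RPS18A, for a protein of the head, by 0.46 (± 0.16, edgeR adjusted p = 0.0316). RPS30A fell by 0.39 (± 0.13, edgeR adjusted p = 0.028) and RPS21B by 0.41 (± 0.13, edgeR adjusted p = 0.0233). All 6 had both HP mutation libraries below both nHP mutation libraries.

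Of the 8 single genes, 6 passed in this comparison, RPS15 among them, and RPS3 and RPS31 are given with the genes that did not. RPS12, for a protein of the beak, had 1087 and 1205 CPM in the HP mutation libraries, against 1528 and 1745 CPM in the nHP mutation libraries. RPS13 had 657 and 711 CPM in the HP mutation libraries, against 881 and 1097 CPM in the nHP mutation libraries. RPS2, for a protein at the mRNA entry channel, had 797 and 856 CPM in the HP mutation libraries, against 1033 and 1206 CPM in the nHP mutation libraries. All 3 were lower in both HP libraries, with log2 fold changes of -0.51 ± 0.14 for RPS12, -0.53 ± 0.15 for RPS13 and -0.44 ± 0.14 for RPS2. RPS20, for a protein of the head, had 820.4 and 941 CPM in the HP mutation libraries, against 1083 and 1282 CPM in the nHP mutation libraries. RPS20 fell by 0.42 (± 0.14), and the edgeR adjusted p of these 4 genes ran from 0.0098 to 0.0219.

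The 8 genes that did not pass included the 3 least abundant copies. RPS9A had 85.7 and 77.8 CPM in the HP mutation libraries, against 73.9 and 61.1 CPM in the nHP mutation libraries (log2 fold change 0.28 ± 0.12, edgeR adjusted p = 0.0755). It was the sole gene of the 56 with a positive value, and 1 member was called higher when nHP mutation replicate 1, HP control replicate 1 or HP control replicate 2 was left out. RPS14B had 57 and 57.9 CPM in the HP mutation libraries, against 64.4 and 68.4 CPM in the nHP mutation libraries (-0.21 ± 0.10, edgeR adjusted p = 0.0999). RPS28B had 47.7 and 50.5 CPM in the HP mutation libraries, against 69 and 56.8 CPM in the nHP mutation libraries (-0.36 ± 0.18, edgeR adjusted p = 0.113). Their major copies were called lower: RPS9B by 0.46 (± 0.15), RPS14A by 0.36 (± 0.10) and RPS28A by 0.49 (± 0.13). The fold change of the A copy minus that of the B copy was 0.74 ± 0.19 in RPS9. It was -0.16 ± 0.14 in RPS14 and -0.14 ± 0.22 in RPS28, so a clear difference between copies was seen in RPS9 only. These standard errors take the copies as independent. The remaining 5 were RPS3 (-0.36 ± 0.14), whose protein sits where mRNA enters, RPS31 (-0.39 ± 0.16), RPS30B (-0.35 ± 0.15), RPS10B (-0.40 ± 0.18) and RPS29A (-0.27 ± 0.15), for a small zinc-binding protein of the head. Their edgeR adjusted p-values ran from 0.0532 for RPS3 to 0.17 for RPS29A.

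**Figure D3:**
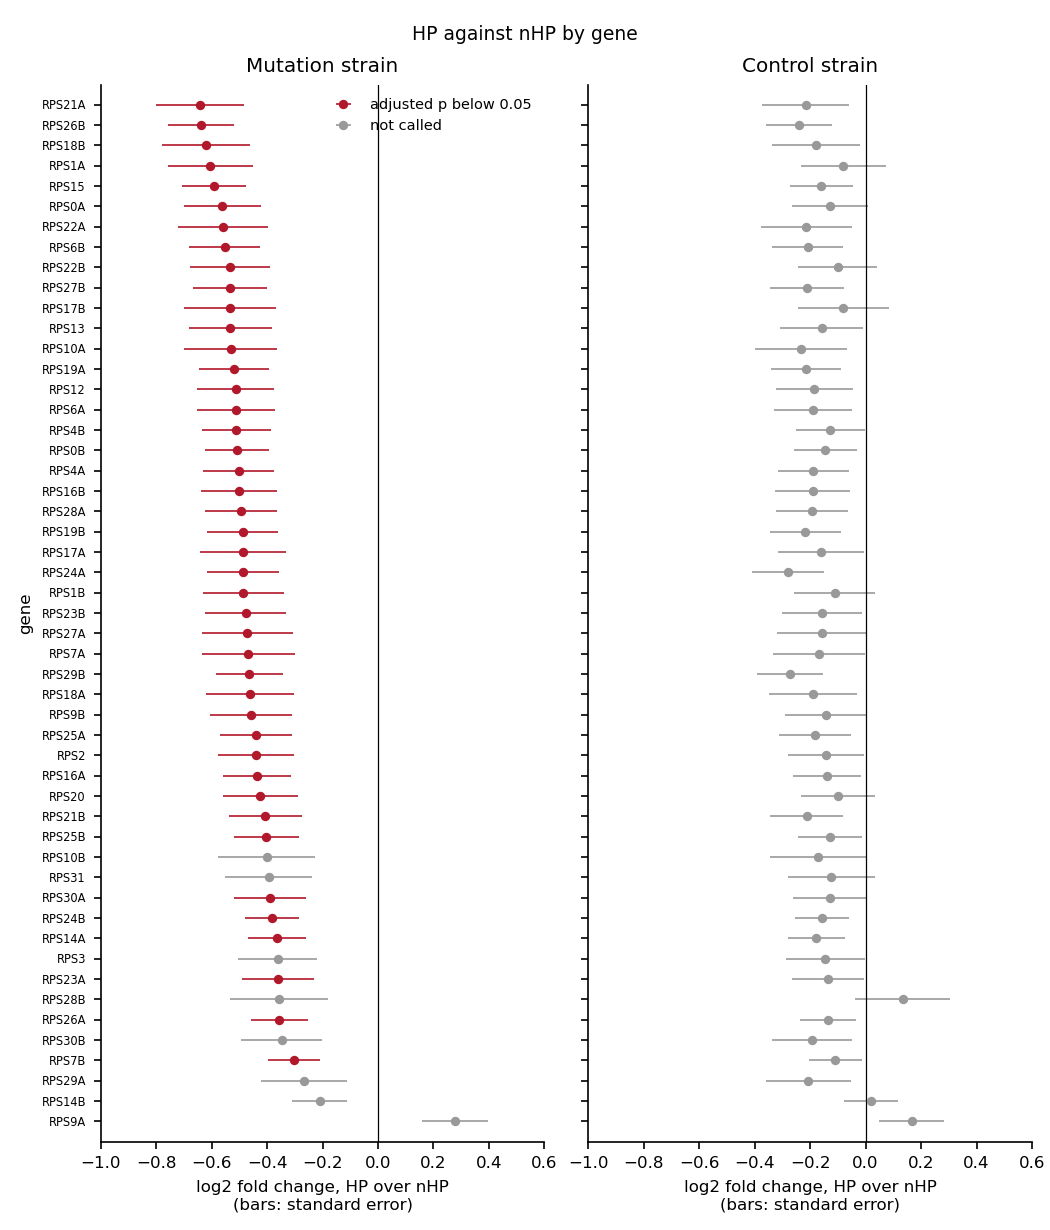
Log2 fold change of HP over nHP libraries for 51 of the 56 genes in the mutation strain (left) and in the control strain (right), with standard errors from edgeR; red marks an adjusted p below 0.05. In the mutation strain 43 of the genes shown are called lower and RPS9A alone lies above 0, at 0.28; in the control strain no gene is called and RPS9A, RPS14B and RPS28B lie above 0.

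**Figure D4:**
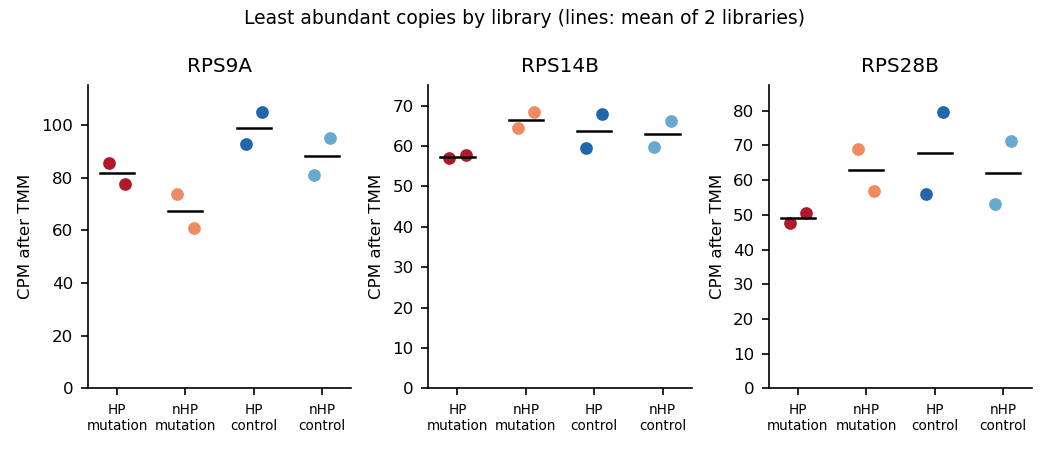
CPM of RPS9A, RPS14B and RPS28B in each library, from an axis that starts at 0; points are libraries and lines are means of 2. The HP mutation libraries of RPS9A, at 85.7 and 77.8 CPM, lie above the nHP mutation libraries, at 73.9 and 61.1 CPM, and the order is the other way round for RPS14B and RPS28B.

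In the control strain, small subunit genes did not differ detectably between HP and nHP libraries. No gene was called by edgeR, 1 passed at an unadjusted p under 0.05, against 721 of all 6174 genes, and DESeq2 called 0. In this comparison 1.96% of all genes were called in either direction, 1.44% higher and 0.518% lower. The median log2 fold change was -0.16 over the 56 genes, against 0.00 over all genes, and single genes ran from -0.28 ± 0.13 for RPS24A to 0.17 ± 0.12 for RPS9A. RPS24A had 472 and 605 CPM in the HP control libraries, against 617 and 689.5 CPM in the nHP control libraries. RPS9A had 92.7 and 105 CPM in the HP control libraries, against 81 and 95.3 CPM in the nHP control libraries. The groups of RPS24A did not overlap and those of RPS9A did. For 8 of the 56 genes both HP libraries lay below both nHP libraries, against 19% of all genes, and for 0 both lay above, against 19.8% of all genes.

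The HP control libraries differed between themselves: replicate 1 was lower than replicate 2 in all 56 genes, by a median of 0.34 on the log2 scale. Leaving out HP control replicate 2 gave a median of -0.36 with 2 genes called lower, and leaving out replicate 1 gave 0 with 0 called.

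The strain difference within nHP libraries was small. Of the 56 genes, 0 rose, 1 fell and 55 did not pass, against 21.3% of all genes called in either direction, 11.4% higher and 9.91% lower. At an unadjusted p under 0.05 the same single gene passed, against 2178 of all 6174 genes, and DESeq2 called 0. The median log2 fold change was 0.05, against -0.02 over all genes, and the standard error of a single gene was 0.09 to 0.17. Both nHP mutation libraries lay above both nHP control libraries for 2 genes, against 30% of all genes, and below them for 3, against 35.2%. RPS4B, the highest, had 375 and 466 CPM in the nHP mutation libraries, against 353 and 385 CPM in the nHP control libraries (0.19 ± 0.12, edgeR adjusted p = 0.309).

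RPS9A was the gene called. It had 73.9 and 61.1 CPM in the nHP mutation libraries, against 81 and 95.3 CPM in the nHP control libraries, with no overlap. The log2 fold change was -0.39 ± 0.12 (edgeR adjusted p = 0.0404). This call stood close to the threshold: leaving out nHP mutation replicate 2 gave -0.25 (adjusted p = 0.319), leaving out nHP control replicate 2 gave -0.25 (adjusted p = 0.269), and DESeq2 gave -0.36 (adjusted p = 0.057). It was also lost without either HP mutation library (adjusted p = 0.0569 and 0.0635) and without nHP control replicate 1 (-0.49, adjusted p = 0.0588), and over all alternatives the adjusted p ran from 0.0109 to 0.319. The major copy RPS9B had 1022 and 1263 CPM in the nHP mutation libraries, against 989.6 and 1096 CPM in the nHP control libraries (0.13 ± 0.15).

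Within HP libraries, every one of the 56 genes had a negative strain difference and none was called in this fit. A fit that also modelled the replicate number called most of them lower, and more of all genes lower too, as given under processing below. The median log2 fold change was -0.27, against -0.05 over all genes, and the values ran from -0.47 ± 0.17 for RPS28B to -0.09 ± 0.09 for RPS7B. By edgeR 28.7% of all genes were called in either direction, 14.7% higher and 14% lower. At an unadjusted p under 0.05, 19 of the 56 genes passed, against 2592 of all 6174 genes, and DESeq2 called 2 lower. RPS28B had 47.7 and 50.5 CPM in the HP mutation libraries, against 56 and 79.6 CPM in the HP control libraries (edgeR adjusted p = 0.0611). RPS7B had 300.3 and 311 CPM in the HP mutation libraries, against 307 and 346 CPM in the HP control libraries. Both HP mutation libraries lay below both HP control libraries for 34 of the 56 genes, against 36.7% of all genes, and above them for 0, against 30.5%. Again the HP control libraries set the size: the median was -0.37 without replicate 1 of that group and -0.07 without replicate 2. The number called changed with the library left out, among the 56 genes and over all genes.

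The interaction, which subtracts the control strain's HP over nHP log2 fold change from the mutation strain's, was called by edgeR for 0 of the 56 genes, against 29.2% of all genes, with 14.6% in each direction. At an unadjusted p under 0.05, 6 genes passed, against 2551 of all 6174 genes, and DESeq2 called 2 lower. A fit that also modelled the replicate number called some of the 56 lower, as given under processing below. The median was -0.31 on the log2 scale, against 0.01 over all genes, with 55 values below 0 and standard errors of 0.13 to 0.25. RPS1A, for a protein of the platform, had the lowest value (-0.52 ± 0.22, edgeR adjusted p = 0.089). It had 764 and 865 CPM in HP mutation, 1083 and 1394 CPM in nHP mutation, 896 and 1165 CPM in HP control and 1042 and 1138 CPM in nHP control libraries. RPS9A had the highest value (0.11 ± 0.17). Leaving out HP control replicate 1 gave a median of -0.45, and leaving out replicate 2 of that group gave a median of -0.12. The number called changed with the library left out, among the 56 genes and over all genes.

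The ratio of A to B copy differed far more between pairs than between libraries. On the log2 RPKM scale the A copy was higher in all 8 libraries in 16 pairs and the B copy in 6, and in RPS21 and RPS29 neither was. The copies differed by over 2-fold in 7 of the 24 pairs. RPS14 had the A copy 14.3-fold higher and RPS28 the A copy 9.5-fold higher, while RPS9 had the B copy 11.9-fold higher and RPS27 the B copy 4.28-fold higher (means of 8 libraries). The closest pairs were RPS29 (1.01-fold), RPS21 (1.02-fold), RPS16 (1.1-fold) and RPS1 (1.13-fold). Summed over pairs, A copies held 55.6% to 56.2% of the pair counts in a library, with 55.7 ± 0.157% in mutation libraries and 56 ± 0.156% in control libraries (SD, n = 4 each; two-sided exact permutation p = 0.0571). In HP and nHP libraries the share was 55.9 ± 0.156% and 55.9 ± 0.3% (exact permutation p = 0.829).

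Across the 4 groups the mean log2 ratio of a pair ranged by a median of 0.13. In 15 pairs the range was under 0.2, and in 2 pairs, RPS9 and RPS28, it was over 0.3. The RPS9 ratio of A over B was -3.22 and -3.50 in HP mutation, -3.80 and -4.38 in nHP mutation, -3.15 and -3.37 in HP control and -3.63 and -3.54 in nHP control libraries. Both HP libraries of each strain lay above both nHP libraries, and both nHP mutation libraries lay below all others. The range of group means was 0.83. Leaving out nHP mutation replicate 2 gave 0.54, and leaving out the other library of that group gave 1.12. Over both strains the ratio averaged -3.31 ± 0.16 in HP libraries and -3.84 ± 0.38 in nHP libraries (SD, n = 4 each). The difference of 0.53 had p = 0.0286 in a two-sided exact permutation test, the smallest p that 4 libraries against 4 allow, and 0.171 after adjustment over the 24 pairs. Of the 24 pairs 4 had p = 0.0286 (exact permutation), RPS10 and RPS14 being among the others, with differences of -0.09 and -0.18, and 0 passed after adjustment; this test was added after the values were seen. Within a strain, 2 libraries against 2 cannot go below an exact p of 0.333.

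In the edgeR fit the fold change of RPS9A minus that of RPS9B was 0.74 ± 0.19 for HP against nHP in the mutation strain and 0.31 ± 0.19 in the control strain. For mutation against control it was -0.09 ± 0.19 in HP and -0.52 ± 0.19 in nHP libraries. These standard errors combine both copies as if independent, although the copies share their libraries.

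The RPS28 ratio of A over B was 3.17 and 3.19 in HP mutation, 3.16 and 3.49 in nHP mutation, 3.12 and 3.04 in HP control and 3.56 and 3.26 in nHP control libraries. Its range of group means was 0.33, set by the HP control mean of 3.08 and the nHP control mean of 3.41, whose libraries did not overlap, and the pooled SD within groups was 0.16. The mutation groups overlapped. The next ranges were those of RPS26 (0.28) and RPS21 (0.27). In RPS26 the ratio was 0.55 and 0.46 in HP mutation libraries and 0.27 and 0.17 in nHP mutation libraries. In RPS21 it was -0.05 and -0.09 in HP mutation libraries and 0.11 and 0.21 in nHP mutation libraries. It was -0.17 and -0.05 in HP control and -0.13 and -0.07 in nHP control libraries, so the A copy was higher in nHP mutation libraries only. In the edgeR fit the fold change of RPS21A minus that of RPS21B was -0.24 ± 0.20 for HP against nHP in the mutation strain.

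**Figure D5:**
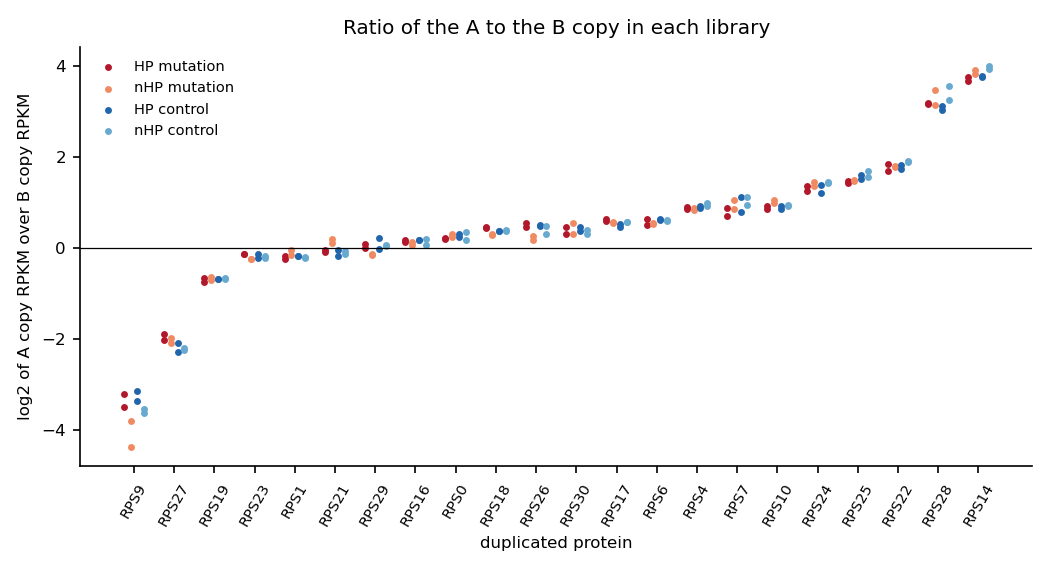
Log2 ratio of A copy RPKM over B copy RPKM for 22 duplicated proteins in each of the 8 libraries, ordered by mean; values above 0 mean a higher A copy. The ratio runs from about 11.9-fold in favour of RPS9B to 14.3-fold in favour of RPS14A, and RPS9 has the widest range of group means (0.83, against a median of 0.13).

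Members were also grouped by gene structure and level, and the medians of HP against nHP in the mutation strain lay close together. In that comparison 24.1% of all genes were called lower. Of the 36 genes with an intron, 32 were called lower with a median of -0.49, and of the 20 without, 16 with a median of -0.45. A copies (22 of 24 lower, median -0.48), B copies (20 of 24, median -0.48) and single genes (6 of 8, median -0.47) lay within 0.01 of each other in median. Of the 8 genes with a mean under 500 RPKM, 5 were called lower with a median of -0.47, and of the other 48, 43 with a median of -0.48.

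The 500 bases before each start codon were searched on both strands for 3 motifs of factors that bind ribosomal protein promoters. A Rap1 match (ACCCNNACA) was found for 18 of the 56 genes, or 32.1%, against 5.45% of 6019 genes and 44.4% of 81 large subunit genes. An Fhl1 match (GACGCA) was found for 10.7% of the 56 genes and 10.9% of all 6019, and a match to the consensus of Abf1 for 12.5% and 9.54%. A match is a description of letters, not evidence of binding. Examples of the Rap1 match, in capitals, are shown for genes named above, with the strand that reads towards the gene.
RPS4B (chrVIII:505975-506013, minus strand): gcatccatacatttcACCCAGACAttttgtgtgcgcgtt
RPS1A (chrXII:1019130-1019168, minus strand): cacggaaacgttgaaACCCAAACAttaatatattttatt
RPS13 (chrIV:579213-579251, plus strand): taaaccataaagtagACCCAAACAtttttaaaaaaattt
The matches lie 460 to 468, 237 to 245 and 222 to 230 bases before the start codons of RPS4B, RPS1A and RPS13. Of the 18 genes with a match, 17 were called lower in HP mutation against nHP mutation libraries (median -0.50), and of the 38 without, 31 were (median -0.46). Over all genes tested 24.1% were called lower.

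Large subunit ribosomal protein genes had medians within 0.01 of those of the small subunit genes in every comparison. For HP against nHP in the mutation strain, 70 of 80 tested were called lower and 0 higher, against 24.1% and 25.2% of all genes. Their median there was -0.48. The medians were -0.17 for HP against nHP in the control strain, -0.27 for the strain difference in HP libraries, 0.05 for that in nHP libraries and -0.31 for the interaction. In HP libraries 8 of the 80 were called lower between strains, against 0 of the 56 small subunit genes and 14% of all genes. The median was -0.27 for both lists.

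Chaperones and assembly factors of the small subunit, a list of 19 genes that act at early and late steps, are set beside the ribosomal proteins. In nHP mutation against nHP control libraries 12 of the 19 rose and 0 fell, while 7 were not called (median 0.40), against 11.4% of all genes called higher and 9.91% lower. KRR1, needed for early assembly, rose by 0.79 (± 0.11, edgeR adjusted p = 0.000775), and YAR1, the chaperone of Rps3, rose by 0.75 (± 0.10, edgeR adjusted p = 0.00041). TSR4, which assists Rps2, rose by 0.63 (± 0.13, edgeR adjusted p = 0.00526) and LTV1, an assembly factor that binds beside Rps3, by 0.55 (± 0.10, edgeR adjusted p = 0.00331). TSR2, the chaperone of Rps26, had 0.38 ± 0.14 and did not pass (edgeR adjusted p = 0.0787). The count of 12 fell when nHP control replicate 1 or nHP mutation replicate 2 was left out, and so did the number called higher over all genes.

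For HP against nHP in the mutation strain, 15 of these 19 fell, 1 rose and 3 were not called, with a median of -0.64, against 24.1% of all genes called lower and 25.2% higher. KRR1 fell by 1.31 (± 0.11), PRP43, a helicase of ribosome assembly and splicing, by 1.01 (± 0.09), and TSR2 by 0.75 (± 0.14). SQS1, an activator of Prp43, rose by 0.39 (± 0.09, edgeR adjusted p = 0.00346). FAP7, which works on Rps14, fell by 0.54 (± 0.15). In the control strain 0 of the 19 were called by edgeR and 1 passed at an unadjusted p under 0.05, against 721 of all 6174 genes. The interaction was called lower for 10, higher for 1 (SQS1) and not for 8, with a median of -0.72, against 14.6% of all genes in each direction. In HP libraries 8 of the 19 fell between strains and 1 rose, against 14% and 14.7% of all genes.

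Proteins that work with the small subunit in translation made up a further list. Of its 14 genes, 10 rose in nHP mutation against nHP control libraries and 0 fell (median 0.43), against 11.4% and 9.91% of all genes, among them PRT1 by 0.72 (± 0.12) and NIP1 by 0.66 (± 0.12), both subunits of initiation factor eIF3. The count of 10 fell when nHP control replicate 1 or nHP mutation replicate 2 was left out, and so did the number called higher over all genes. All 14 fell for HP against nHP in the mutation strain (median -0.72), against 24.1% of all genes, from -1.02 ± 0.12 for NIP1 to -0.47 ± 0.09 for HCR1. ASC1, the Rack1-type protein on the head of the subunit, fell by 0.61 (± 0.16, edgeR adjusted p = 0.0077). In the control strain 0 were called by edgeR and 0 passed at an unadjusted p under 0.05, against 721 of all 6174 genes. In HP libraries 3 of the 14 fell between strains, against 14% of all genes, and the interaction was called lower for 11, against 14.6%.

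Regulators of ribosomal protein genes, 19 in all, went both ways. For HP against nHP in the mutation strain 5 rose and 7 fell (median -0.08), against 25.2% of all genes called higher and 24.1% called lower, so the share that rose was near that of all genes. CRF1, a corepressor of ribosomal protein genes that competes with Ifh1 for Fhl1, rose by 1.45 (± 0.12, edgeR adjusted p = 1.26e-05). FHL1 fell by 0.41 (± 0.10, edgeR adjusted p = 0.00466) and RAP1 by 0.25 (± 0.08, edgeR adjusted p = 0.0278), whereas IFH1 had -0.08 ± 0.09 and did not pass. SFP1 rose by 0.26 (± 0.08, edgeR adjusted p = 0.0205) and ABF1 by 0.53 (± 0.10, edgeR adjusted p = 0.000927). CBF1 (0.34 ± 0.09) and STB3 (0.41 ± 0.11) made up the other rises. The other falls were HMO1 (-0.42 ± 0.10), SCH9 (-0.26 ± 0.09), UTP22 (-0.77 ± 0.11), RRP7 (-0.29 ± 0.10) and TOD6 (-0.69 ± 0.12).

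Between strains, 5 of the 19 regulators rose in nHP libraries and 0 fell, against 11.4% and 9.91% of all genes: SCH9 by 0.61 (± 0.09), UTP22 by 0.56 (± 0.11), REB1 by 0.42 (± 0.10), HMO1 by 0.36 (± 0.10) and ABF1 by 0.36 (± 0.10). In HP libraries CRF1 rose by 0.95 (± 0.11), ABF1 by 0.74 (± 0.10) and SFP1 by 0.42 (± 0.08), while UTP22 fell by 0.36 (± 0.11) and TOD6 by 0.65 (± 0.12). Of all genes 14.7% were called higher and 14% lower in HP libraries, shares not far from those of the regulators. The interaction was called higher for CRF1 (1.08 ± 0.17, edgeR adjusted p = 0.00187) and lower for 5 others, against 14.6% of all genes in each direction. No regulator was called for HP against nHP in the control strain. There 6 passed at an unadjusted p under 0.05, against 721 of all 6174 genes.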

How the data were processed

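Libraries were prepared from total RNA with an NEBNext Ultra kit, per the labels' protocols, and the submitters' processing notes name TopHat2 2.0.9. The sources used here name no counting program, strand setting or genome build, so overlapping and antisense genes cannot be told apart. The deposited count table holds whole, unscaled numbers. The deposited RPKM values are those counts per gene length and library total. The lengths they imply equal the R64 coding length for all 56 genes, and for 5868 of 5878 protein coding genes with an implied length.

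The members, lists and tests were chosen with earlier results of these data known. From the counts, edgeR 4.0.16 (R 4.3.3) fitted 1 quasi-likelihood model of 4 group means to 8 libraries, with TMM scaling and edgeR's standard filter. Its variation between libraries was 8.07%, with 4 residual degrees of freedom. Tests were two-sided, with Benjamini-Hochberg adjustment over 6174 genes and a threshold of 0.05. CPM means counts scaled to TMM library size. Named are, in each comparison, all called members (over 12, the 6 smallest and 6 largest p), the extremes, the single genes, and the 4 pairs with the most equal, most unequal and most variable ratios. A few members that this rule or a plot would show are counted but not reported here by name. Lists are given by counts, with values for called members or a few of them. The fit was tested on simulated data. Alternatives were RLE factors, no composition scaling, TMM without ribosomal protein genes, no filter, DESeq2 1.42.0, a replicate block, and each library left out. Sequences were read with Biopython 1.88.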

Additional observations from a re-analysis of the deposited data

How the results depend on the processing

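The 48 falls of HP against nHP in the mutation strain were 34 without composition scaling, a setting that moved the median of all genes to 0.14, and RPS9A was then called higher (1 against 0). DESeq2 called 52 lower. With each library left out in turn the falls numbered 3 to 54 and the rises 0 to 1. RPS9A's fall in nHP libraries was not called by DESeq2 (0 members lower), and the count was 0 to 2 with libraries left out. For the strain difference in HP libraries 2 members were lower by DESeq2 and 0 to 33 with libraries left out, with a median of -0.37 to -0.07. For HP against nHP in the control strain the range was 0 to 2 members, with a median of -0.36 to 0.00. For the interaction DESeq2 gave 2 lower, and leaving out libraries gave 0 to 26, with a median of -0.45 to -0.12. The summed share of HP minus nHP libraries ran from -0.887 to -0.499 percentage points, and the range of group means of the A to B ratio from 0.54 to 1.12 in RPS9 and from 0.22 to 0.33 in RPS21. The rise of assembly factors in nHP libraries was called for 4 to 15 genes and that of translation proteins for 1 to 10; these list counts under other settings were added after seeing the data. The number of all genes called varied with the setting in every comparison too. The naming rule took 13 member calls by p-value, not all of them reported here by name. Of these 13, RLE factors and TMM without ribosomal protein genes kept 13, DESeq2 12 and no composition scaling 7. Fewer were kept when some of the libraries were left out, and none reversed under any setting run. The cause of these changes was not tested, apart from fewer libraries in the settings that leave one out.

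No source used here says whether the replicate numbers pair the libraries. Deviations from the group means over all genes correlated at -0.03 to 0.20 between same-numbered libraries of 2 groups, not all over 0.1. With a replicate block the members called lower numbered 52 for HP against nHP in the mutation strain, 41 for the strain difference in HP libraries and 18 for the interaction. Over all 6174 genes, those called lower numbered 1629, 1251 and 1202 with the block, against 1486, 862 and 899 without it.

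How far depth limits the calls of the least abundant members was not tested. The 2 libraries per group limit the precision; a setting that leaves 1 library in a group assumes that it varies like the other groups.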
